A study of Mus musculus with 39 samples.

Results

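The 8 genes described here, Cdx2, Eomes, Elf5, Gata2, Gata3, Tfap2a, Tfap2c and Tead4, encode transcription factors of the trophectoderm, the outer epithelium of the blastocyst that gives rise to the placenta. They are 8 of the 21938 protein-coding genes of the mouse annotation. They were taken as a named list without a cut on a measured value, but with earlier results of these data known. For each gene the window was the gene body plus 50 kb on either side on GRCm38, and 430 of the 432096 listed peaks fell in the 8 windows. Gata3 (chr2:9857078-9890034), Elf5 (chr2:103411688-103450989) and Tfap2c (chr2:172549593-172558622) share chromosome 2, and Gata2 (chr6:88193891-88207032) and Tead4 (chr6:128224288-128300823) share chromosome 6. Cdx2 is at chr5:147300805-147307270, Eomes at chr9:118478212-118486132 and Tfap2a at chr13:40715302-40738376. Cdx2, Gata3, Tfap2a and Tead4 are on the minus strand. The data were CUT&Tag, an assay that cuts and tags DNA with Tn5 at nucleosomes bound by an antibody against a histone mark. The cells were mouse naive extra-embryonic endoderm (nEnd), a culture of primitive endoderm derived from embryonic stem cells and grown on feeder fibroblasts in RACL, a medium with Activin A, CHIR99021 and LIF. A single OCT4-mCherry reporter line was sorted on OCT4-mCherry and PDGFRA-APC into Oct4+, double positive (DP) and Pdgfra+ cells. No group was treated. Each of 4 marks (H3K4me1, H3K27ac, H3K27me3, H3K9me3) was profiled in 3 replicates per population, which gave 36 peak lists, and 3 IgG controls were not analysed here.

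Specification of trophectoderm begins with TEAD4, which with its co-activator YAP switches on Cdx2 and Gata3 in outer cells. EOMES, ELF5 and TFAP2C then hold one another's genes active in trophoblast stem cells, while GATA2, GATA3 and TFAP2A act in placental lineages. H3K4me1 marks enhancers and the edges of promoters, H3K27ac marks active elements, H3K27me3 is the mark of Polycomb repression and H3K9me3 that of heterochromatin. Polycomb-marked promoters of developmental regulators are usually rich in CpG dinucleotides.

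The lists differed widely in length, from 1074 to 65131 peaks, so each result below is given by library. The replicate lists of the Pdgfra+ population differed most for H3K4me1, with 1723, 1074 and 10620 peaks. For H3K27ac, Oct4+ replicate 3 held 8574 peaks beside 38619 and 65131 in the other Oct4+ lists. The sorted populations were checked on the windows of 8 pluripotency and 9 endoderm genes. Of the pluripotency genes, 100% carried an H3K27ac peak in every Oct4+ library, 62.5% ± 25 (SD, n = 3) in DP and 45.8% ± 7.22 in Pdgfra+, where the shares of all coding gene windows were 74.1%, 52.9% and 45.8%. Of the endoderm genes, 70.4% ± 42.1, 92.6% ± 12.8 and 88.9% carried H3K27ac, in the same order. For H3K4me1 the shares were 87.5% ± 12.5, 79.2% ± 14.4 and 50% ± 33.1 of the pluripotency genes and 55.6% ± 11.1, 100% and 66.7% ± 33.3 of the endoderm genes, beside 41.1%, 43.8% and 23.6% of all windows. Sequencing depth is unknown, and fewer cells carrying a mark cannot be told apart from less of the mark per cell. The study describes its replicates as biological, and p-values measure the spread between these libraries.

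Promoter sequence is shown first because the members' H3K27me3 and H3K27ac peaks are described at the promoters. The Elf5 stretch printed is an exception, since no library listed a peak of any mark there. The RefSeq promoter table (GRCm38.p6) held 9 starts of 6 members, Cdx2, Eomes, Elf5, Gata2, Gata3 and Tfap2a. The stretches run 5′ to 3′ from 250 to 51 bases before a start, with CpG dinucleotides in capitals. None of those printed below overlaps an annotated exon. Cdx2 is read from the minus strand at chr5:147307300-147307499, Gata2 from the plus strand at chr6:88193641-88193840, Eomes from the plus strand at chr9:118477939-118478138 and the second Elf5 start from the plus strand at chr2:103423818-103424017.
Cdx2: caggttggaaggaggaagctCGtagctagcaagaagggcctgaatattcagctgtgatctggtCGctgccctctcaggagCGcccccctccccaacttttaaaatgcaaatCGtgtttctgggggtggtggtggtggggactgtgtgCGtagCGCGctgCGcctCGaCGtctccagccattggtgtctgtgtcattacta
Gata2: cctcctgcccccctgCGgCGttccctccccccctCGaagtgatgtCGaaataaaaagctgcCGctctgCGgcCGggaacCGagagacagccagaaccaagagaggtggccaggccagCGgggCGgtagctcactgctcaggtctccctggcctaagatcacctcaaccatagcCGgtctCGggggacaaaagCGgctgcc
Eomes: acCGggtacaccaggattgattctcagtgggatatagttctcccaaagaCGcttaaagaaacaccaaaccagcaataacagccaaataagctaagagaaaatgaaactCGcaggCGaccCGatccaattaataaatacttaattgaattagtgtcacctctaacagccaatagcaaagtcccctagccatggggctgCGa
Elf5: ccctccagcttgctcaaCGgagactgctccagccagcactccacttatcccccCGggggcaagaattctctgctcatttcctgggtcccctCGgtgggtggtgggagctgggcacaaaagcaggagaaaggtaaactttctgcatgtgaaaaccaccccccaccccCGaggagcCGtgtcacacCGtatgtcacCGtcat
The median over all 32851 promoters of the table was 4 CpG in this stretch. Gata2 had 13, a number reached by 22.1% of promoters, Cdx2 had 10 (29.3%), Elf5 had 7 (38.3%) and Eomes had 6 (42.2%). The second start of Gata2 had 17 (14.0%), Gata3 had 13 and both Tfap2a starts had 8 (35.0%). The other start of Elf5, which lay under the Oct4+ H3K27ac promoter peaks described below, had 2, which 75.4% of promoters reach. The stretches that are not printed overlap annotated exons, so their CpG counts include exon sequence. The overlap was 200 of 200 bases at the second Gata2 start, at Gata3 and at the other Elf5 start, and 192 and 154 bases at Tfap2a.

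H3K27me3 lay over the promoters of most members. A promoter was the stretch from 1 kb before to 100 bases after any annotated start. On average 5 ± 1.73 of the 8 promoters were under a peak in Oct4+ (SD, n = 3), 5.67 ± 0.577 in DP and 4.33 ± 1.53 in Pdgfra+. The share over all coding genes ran from 5.55% to 17.5% in the Oct4+ libraries, from 13.5% to 19.7% in DP and from 2.72% to 15.1% in Pdgfra+. The members' share was above that of all genes in each of the 9 libraries. Leaving out any 1 replicate kept the member averages between 4.5 and 6 in Oct4+, between 5.5 and 6 in DP and between 3.5 and 5 in Pdgfra+. An excess was also found for H3K4me1, though in several libraries through a single gene. Promoter H3K4me1 was on 3 ± 2 members in Oct4+, 2.33 ± 1.53 in DP and 1.33 ± 0.577 in Pdgfra+, against 9.16%, 11.2% and 4.28% of all coding genes. The members' share was again the higher in each of the 9 libraries. In Oct4+ replicate 1, DP replicate 1 and Pdgfra+ replicates 1 and 2, however, Tead4 alone carried promoter H3K4me1. That was 12.5% of members, against 3.66%, 3.53%, 1.27% and 0.688% of all coding genes. Tead4 had no promoter H3K27me3 in any library.

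**Figure D1:**
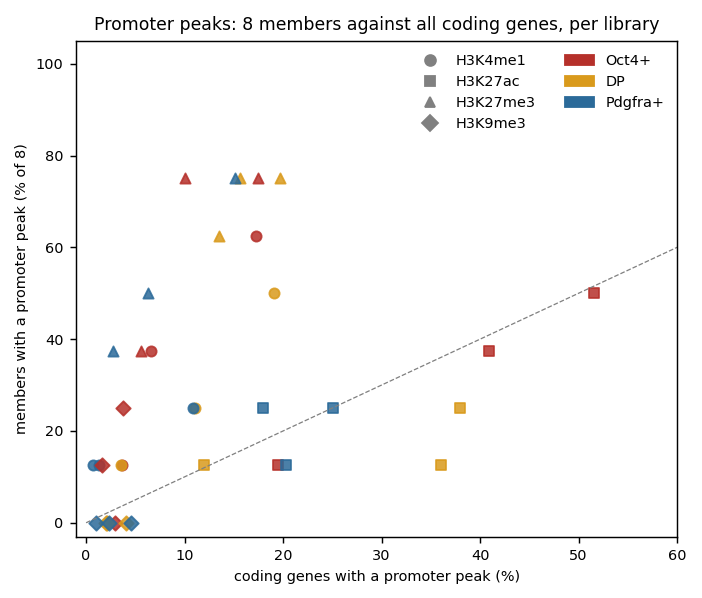
Share of the 8 members with a promoter peak (vertical axis, %) against the share of all coding genes (horizontal axis, %), 1 point per library; shape gives the mark, colour the population, and the dashed line marks equal shares. The 9 H3K27me3 points lie above the line, between 37.5% and 75% of members. The 9 H3K4me1 points also lie above it, between 12.5% and 62.5%, while H3K27ac points lie near or below it.

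The 6 members with promoter H3K27me3 were Gata2, Gata3, Cdx2, Tfap2a, Tfap2c and Eomes. Gata2, which encodes a GATA factor of trophoblast giant cells and blood progenitors, had the domain of highest mean signal in each population, present in 9 of 9 libraries. Its maximum signal, the highest coverage value inside a peak as the caller writes it, was 15, 21 and 51 in Oct4+, 72, 57 and 41 in DP and 9, 20 and 51 in Pdgfra+. The DP domain was 25.3, 25.1 and 24.9 kb wide. The populations overlapped, since Oct4+ replicate 3 and Pdgfra+ replicate 3 reached 51. Ranked within its own list by total signal, the Gata2 promoter peak stood at a median of the 99.1 percentile.

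At Gata3, a target of TEAD4 with YAP, the maximum promoter signal was 12, 20 and 38 in Oct4+, 34, 28 and 28 in DP and 0, 9 and 23 in Pdgfra+. The values of Oct4+ replicate 1 and Pdgfra+ replicate 2 came from starts inside the gene. Their highest points lay 15.5 and 15.6 kb past its first start, which had no peak in either library. The Gata3 values thus do not all compare the same promoter. The widest promoter peak in the 3 DP libraries was 34.4, 22.2 and 22.5 kb. Oct4+ replicate 3 had the highest value of the 9, so DP and Oct4+ overlapped. At Cdx2, the caudal-type factor that holds trophectoderm fate, the signal was 0, 19 and 39 in Oct4+, 53, 40 and 32 in DP and 0, 11 and 30 in Pdgfra+. Here the DP libraries lay above every Pdgfra+ library and overlapped only with Oct4+ replicate 3. A separate H3K27me3 region 33.8 kb downstream of the Cdx2 start covered the promoter of its neighbour Pdx1 in all Oct4+ and DP libraries. In Pdgfra+ replicate 3 it had a peak that did not reach the Pdx1 promoter.

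Both AP-2 genes were marked in all 3 DP libraries. At Tfap2a the signal was 10, 15 and 36 in Oct4+, 43, 28 and 22 in DP and 10, 0 and 30 in Pdgfra+. The Pdgfra+ replicate 1 peak lay at starts inside Tfap2a, highest 4.43 kb past its first start, where that library had no peak. The Oct4+ replicate 1 peak lay at the first start. At Tfap2c, an AP-2 factor of trophoblast stem cells and of germ cells, the signal was 0, 15 and 39 in Oct4+, 54, 32 and 31 in DP and 7, 16 and 32 in Pdgfra+. The Tfap2c domain was 27.3 kb wide in Oct4+ replicate 3 and 13.3, 7.82 and 7.25 kb in DP. Eomes, a T-box factor of trophoblast stem cells and of the primitive streak, had the weakest domain, with 0, 11 and 28 in Oct4+, 0, 14 and 16 in DP and 0, 0 and 17 in Pdgfra+. Its peaks stood at a median of the 56.6 percentile of their lists, against 90.8 to 99.1 for the other 5.

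Elf5 and Tead4 stood apart. Elf5, an ETS factor needed to maintain trophoblast stem cells, had no H3K27me3 peak anywhere in its window in 9 of 9 libraries. Tead4, the TEA-domain factor, had none at its promoters, and its window held H3K27me3 117.4 kb downstream of the start in DP replicates 2 and 3 and Pdgfra+ replicate 3, and at 2 further places in DP replicate 2. Tead4 promoters instead carried H3K27ac in all 9 libraries, at 16, 19 and 9 in Oct4+, 36, 24 and 37 in DP and 44, 16 and 49 in Pdgfra+. They also carried H3K4me1 in all 9, at 10, 26 and 19, at 16, 34 and 24 and at 10, 7 and 27, in the same order of populations. The Tead4 promoter peaks stood at a median of the 95.6 percentile of their lists for H3K27ac and of the 99.1 percentile for H3K4me1. Elf5 had promoter H3K27ac in 5 libraries, at 6, 9 and 0 in Oct4+, 0, 0 and 24 in DP and 29, 12 and 0 in Pdgfra+. Its starts are spread over a long gene, and these values come from 2 promoter regions. The Oct4+ peaks lay at the start of the gene, and the DP and Pdgfra+ promoter peaks lay in the region 31.5 kb into it. The values thus do not compare the populations at a single promoter. DP replicates 2 and 3 and Pdgfra+ replicate 1 also had peaks upstream of the first start, at 9, 10 and 16. These ended before the 1 kb limit of the promoter and merged with the Oct4+ peaks into a single region. The split between the starts thus depends on that limit.

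**Figure D2:**
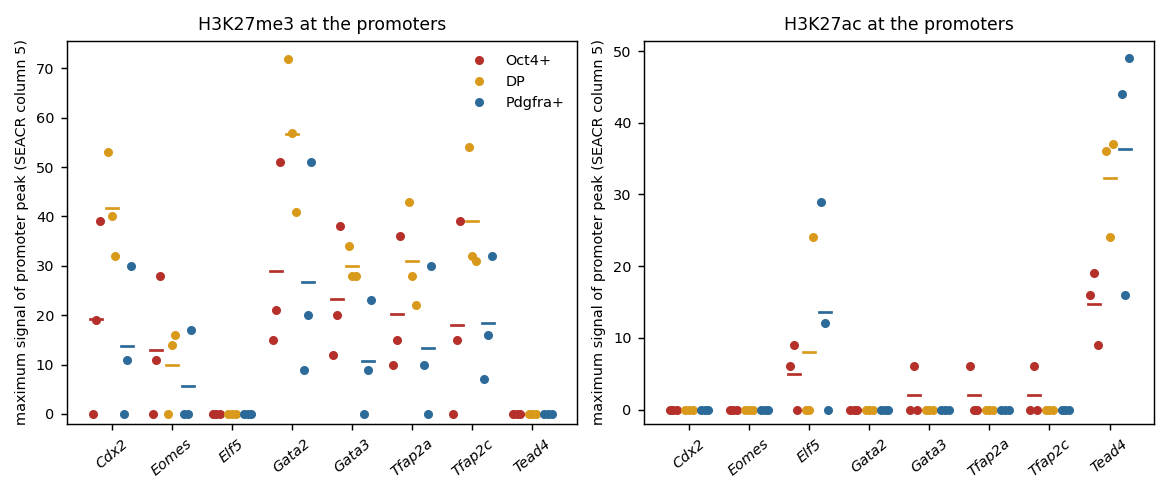
Maximum signal of the promoter peak (vertical axis, as the caller writes it; 0 where no peak was listed) for each member in H3K27me3 (left) and H3K27ac (right), 1 point per library and a line at the mean of 3 libraries. Gata2 reaches 72 in DP for H3K27me3, Elf5 and Tead4 stay at 0 there, and Tead4 has H3K27ac in all 9 libraries.

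Over all 8 members, promoter H3K27ac was near the share of all coding genes in Oct4+ and Pdgfra+. In DP it was lower on average, within the spread. It appeared in 2.67 ± 1.53 of 8 members in Oct4+ (33.3%), 1.33 ± 0.577 in DP (16.7%) and 1.67 ± 0.577 in Pdgfra+ (20.8%). Of all coding genes 37.3% ± 16.3, 28.7% ± 14.5 and 21.1% ± 3.64 had promoter H3K27ac, in the same order. Cdx2, Eomes and Gata2 had none at their promoters in any library. Gata3, Tfap2a and Tfap2c each had it in 1 Oct4+ library, at a signal of 6. H3K9me3 touched promoters of Gata2 in Oct4+ replicates 1 and 3 and of Tead4 in Oct4+ replicate 1, and of no member in DP or Pdgfra+. Of all coding genes 2.76%, 2.71% and 2.64% had promoter H3K9me3 in Oct4+, DP and Pdgfra+. No member besides Gata2 and Tead4 had promoter H3K9me3, and Cdx2 and Gata3 had no H3K9me3 in their windows in 9 of 9 libraries.

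Counting whole windows, 4.67 ± 1.15 members in Oct4+, 5 ± 1.73 in DP and 3.67 ± 2.08 in Pdgfra+ held an H3K4me1 peak. The H3K27ac counts were 4.67 ± 3.21, 5.33 ± 2.08 and 3.67 ± 1.53. An H3K27me3 peak lay in 5.33 ± 1.15, 6.33 ± 1.15 and 5 ± 1.73 windows, an H3K9me3 peak in 4.33 ± 0.577, 4.33 ± 0.577 and 3 ± 2. The shares of all coding gene windows were, in the same order, 41.1%, 43.8% and 23.6% with H3K4me1, 74.1%, 52.9% and 45.8% with H3K27ac, 26.9%, 42.0% and 24.6% with H3K27me3, and 54.6%, 48.8% and 39.9% with H3K9me3. The median window over all coding genes was 117.4 kb, and those of the members ranged from 106.5 kb at Cdx2 to 176.5 kb at Tead4.

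**Figure D3:**
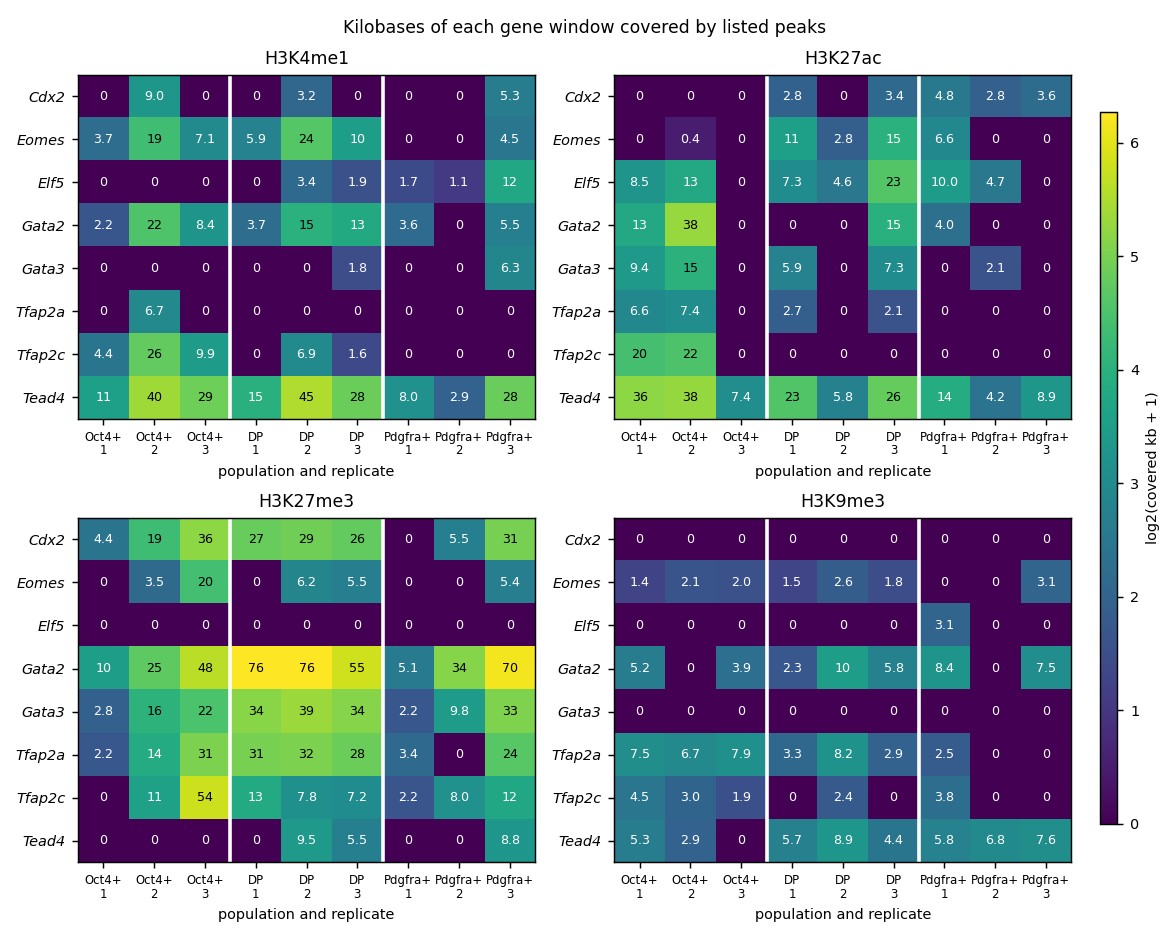
Kilobases of each member's window covered by listed peaks, in 4 panels by mark, with members in rows and the 9 libraries in columns; numbers give kb and colour gives log2(covered kb + 1). Gata2 has H3K27me3 in all 9 libraries and Elf5 in none, Tead4 is covered in every H3K4me1 and H3K27ac library, and Cdx2 and Gata3 are 0 throughout H3K9me3.

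Differences between the populations were tested on the covered length of each window, as log2(covered kb + 1), with limma across all genes that had a peak in 3 or more of the 9 libraries of a mark. Tests between population pairs share libraries, since each population enters 2 of the 3 pairs. With limma's moderated F over the 3 populations and Benjamini-Hochberg adjustment, 0 of 6 members tested passed in H3K4me1, 0 of 7 in H3K27ac, 0 of 7 in H3K27me3 and 0 of 5 in H3K9me3. The share of all genes that passed was 0% in H3K4me1, 6.91% in H3K27ac, 0% in H3K27me3 and 7.6% in H3K9me3. At an unadjusted limma p under 0.05 H3K4me1 gave 2 members (Eomes, Tfap2c), H3K27ac 2 (Cdx2, Eomes), H3K27me3 0 and H3K9me3 1 (Tfap2a). The exact permutation test over 280 partitions of the libraries cannot give a p below 0.00357. After adjustment 0 of all genes tested passed it for each mark, so its 0 members say nothing about the members. At an unadjusted p under 0.05 it gave 0, 1, 0 and 1 members. The median difference of the members tested in H3K27me3 was 1.43 against 1.47 over all genes in DP minus Oct4+, -0.27 against -0.049 in Pdgfra+ minus Oct4+ and 1.49 against 1.62 in DP minus Pdgfra+, on the log2 scale. In H3K27ac it was -0.48 against -0.81, -1.33 against -1.27 and 1.17 against 0.39, in the same order of pairs. In H3K4me1 it was 0.19 against 0.34, -1.40 against -0.97 and 1.46 against 1.32. In H3K9me3 it was 0.061 against -0.067, -0.81 against -0.37 and 0.56 against 0.21.

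Several differences below passed under another setting only, and the number of genes passing the limma F in all then mostly rose as well. For H3K4me1 it went from 0 to 670 with an equal number of peaks per list, 458 with peaks given to the nearest gene and 1123 when scaled to the total covered length. For H3K27ac it went from 1061 to 2442 when scaled, 1363 without DP replicate 2 and 2710 without Oct4+ replicate 3, and to 898 with a flank of 20 kb. For H3K27me3 it went from 0 to 2283 without Pdgfra+ replicate 3.

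Between pairs of populations, 859 and 1867 of 15359 genes passed in H3K27ac for DP minus Oct4+ and Pdgfra+ minus Oct4+. For DP minus Oct4+, 450 of 9382 passed in H3K27me3 and 817 of 13798 in H3K9me3. No gene passed in H3K4me1, in DP minus Pdgfra+ of any mark or in H3K27me3 for Pdgfra+ minus Oct4+. The absence of members there says nothing about them. Of the members, only Tfap2a passed in a pair of populations. H3K9me3 covered 7.55, 6.73 and 7.88 kb of its window in Oct4+, 3.29, 8.25 and 2.91 kb in DP and 2.55, 0 and 0 kb in Pdgfra+. The Oct4+ libraries all lay above the Pdgfra+ libraries, and DP lay above Pdgfra+ and overlapped with Oct4+. The Pdgfra+ minus Oct4+ difference fell by 2.46 on the log2 scale (SE 0.628, limma adjusted p = 0.0337), where 11.3% of genes tested passed in this pair in either direction. The call was lost with a pseudocount of 0.1 kb (limma adjusted p = 0.0578), in the upper 50% of each list (0.130) and with the replicate block (0.0746). It was also lost without Oct4+ replicate 1 (0.165), 2 (0.195) or 3 (0.130) or Pdgfra+ replicate 2 (0.0585) or 3 (0.113). The exact permutation test over the 3 populations gave Tfap2a an adjusted p = 0.238, but no gene passed that test after adjustment. The region behind it, chr13:40675039-40683192, lay 59.3 kb downstream of the Tfap2a start, with a maximum signal of 11, 14 and 7 in Oct4+, 0, 8 and 0 in DP and 0 in all 3 Pdgfra+ libraries. A peak in 3 of 3 Oct4+ and 0 of 3 Pdgfra+ was found in 7.77% of merged H3K9me3 regions.

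Single regions were then read by library. Peaks of the 9 libraries of a mark were merged, and a region was set down as different between 2 populations where 3 of 3 libraries of one and 0 of 3 of the other held a peak. In the 8 windows this rule took regions near Cdx2, Eomes, Elf5, Gata2, Tfap2a, Tfap2c and Tead4, and none near Gata3. It is a count without a p-value, and the share of all merged regions of the mark that meet it is given with it.

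At Eomes the elements downstream of the gene differed. The sequences around the highest signal of 2 of them are shown because they carried DP peaks in 3 of 3 libraries and none in Oct4+. Both are 200 bases from the plus strand of GRCm38.p6 and lie outside annotated exons. Capitals mark matches, on either strand, to GATAAG (the GATA core), GCCNNNGGC (AP-2) and GGAATG (TEAD). The H3K4me1 element is chr9:118508344-118508543 and the H3K27ac element is chr9:118496661-118496860.
Eomes H3K4me1 element: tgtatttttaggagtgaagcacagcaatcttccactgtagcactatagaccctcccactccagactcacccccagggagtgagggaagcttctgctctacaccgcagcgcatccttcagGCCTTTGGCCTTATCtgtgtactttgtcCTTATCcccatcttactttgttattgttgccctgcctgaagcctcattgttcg
Eomes H3K27ac element: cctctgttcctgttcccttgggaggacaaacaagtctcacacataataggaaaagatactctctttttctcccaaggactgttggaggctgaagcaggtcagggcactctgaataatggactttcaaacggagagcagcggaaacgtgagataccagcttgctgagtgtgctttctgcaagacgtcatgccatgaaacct
The H3K4me1 element held 2 GATAAG matches and 1 GCCNNNGGC match, none of which overlapped, and the H3K27ac element held no match to these letters. Over 26495 merged H3K4me1 regions, 11.9% of such stretches held a GATAAG match, 8.55% a GCCNNNGGC match and 14.5% a GGAATG match. Over 78958 merged H3K27ac regions the shares were 6.51%, 7.78% and 11.8%.

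The Eomes H3K4me1 region, chr9:118503211-118514289, was centred 30.5 kb from the start and also held a promoter of the next gene, Golga4. Its maximum signal was 0 in 3 of 3 Oct4+ libraries, 19, 33 and 25 in DP and 0, 0 and 29 in Pdgfra+. DP lay above Oct4+ in every library and overlapped with Pdgfra+ replicate 3. Among all merged H3K4me1 regions, 5.25% were in 3 of 3 DP and 0 of 3 Oct4+. The Eomes H3K27ac region, chr9:118494643-118498798, lay 18.5 kb downstream and had a signal of 25, 15 and 20 in DP and 0 in all 6 other libraries. The DP lists held 10957, 3079 and 12244 H3K27ac peaks, and the 3 Oct4+ lists, of 8574 to 65131 peaks, were on the whole longer. The Pdgfra+ lists, of 4792, 7128 and 4861 peaks, were shorter than those of DP replicates 1 and 3, which limits the absence there. A peak in 3 of 3 DP libraries and 0 of 3 of the other population was rare for H3K27ac. It was found in 0.19% of merged regions for DP against Oct4+ and 0.0633% for DP against Pdgfra+.

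The same Eomes element carried H3K4me1 in Oct4+ as well. H3K4me1 there was 7, 16 and 13 in Oct4+, 16, 27 and 23 in DP and 0, 0 and 18 in Pdgfra+. An H3K9me3 region overlapped its near edge, at 10, 11 and 5 in Oct4+, 13, 9 and 9 in DP and 0, 0 and 14 in Pdgfra+. Over the whole Eomes window H3K27ac covered 0, 0.401 and 0 kb in Oct4+, 10.5, 2.75 and 14.9 kb in DP and 6.59, 0 and 0 kb in Pdgfra+. Every DP library lay above every Oct4+ library, and DP overlapped with Pdgfra+ replicate 1. The DP minus Oct4+ difference was 2.98 (SE 0.982, limma adjusted p = 0.111), which passed with a flank of 20 kb (0.0349) and when covered length was scaled to the total of the list (0.0328). H3K4me1 covered 3.72, 19.5 and 7.06 kb in Oct4+, 5.86, 23.5 and 10.4 kb in DP and 0, 0 and 4.46 kb in Pdgfra+, with limma adjusted p = 0.346 over the 3 populations. Without Pdgfra+ replicate 3, which has the longest H3K4me1 list of its population, Eomes passed the limma F, as did 1527 genes in all where none had passed before. The DP minus Pdgfra+ difference was then 3.64 (limma adjusted p = 0.0575).

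An H3K4me1 region at the far edge of the Eomes window, 59.7 kb from the start and over another Golga4 promoter, was in 3 of 3 Oct4+ and 3 of 3 DP libraries and in 0 of 3 Pdgfra+. Of all merged H3K4me1 regions, 6.12% were in 3 of 3 Oct4+ and 0 of 3 Pdgfra+, and 2.13% were in 3 of 3 DP and 0 of 3 Pdgfra+. At the Eomes promoter itself H3K4me1 was listed in Oct4+ replicates 2 and 3 only.

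**Figure D4:**
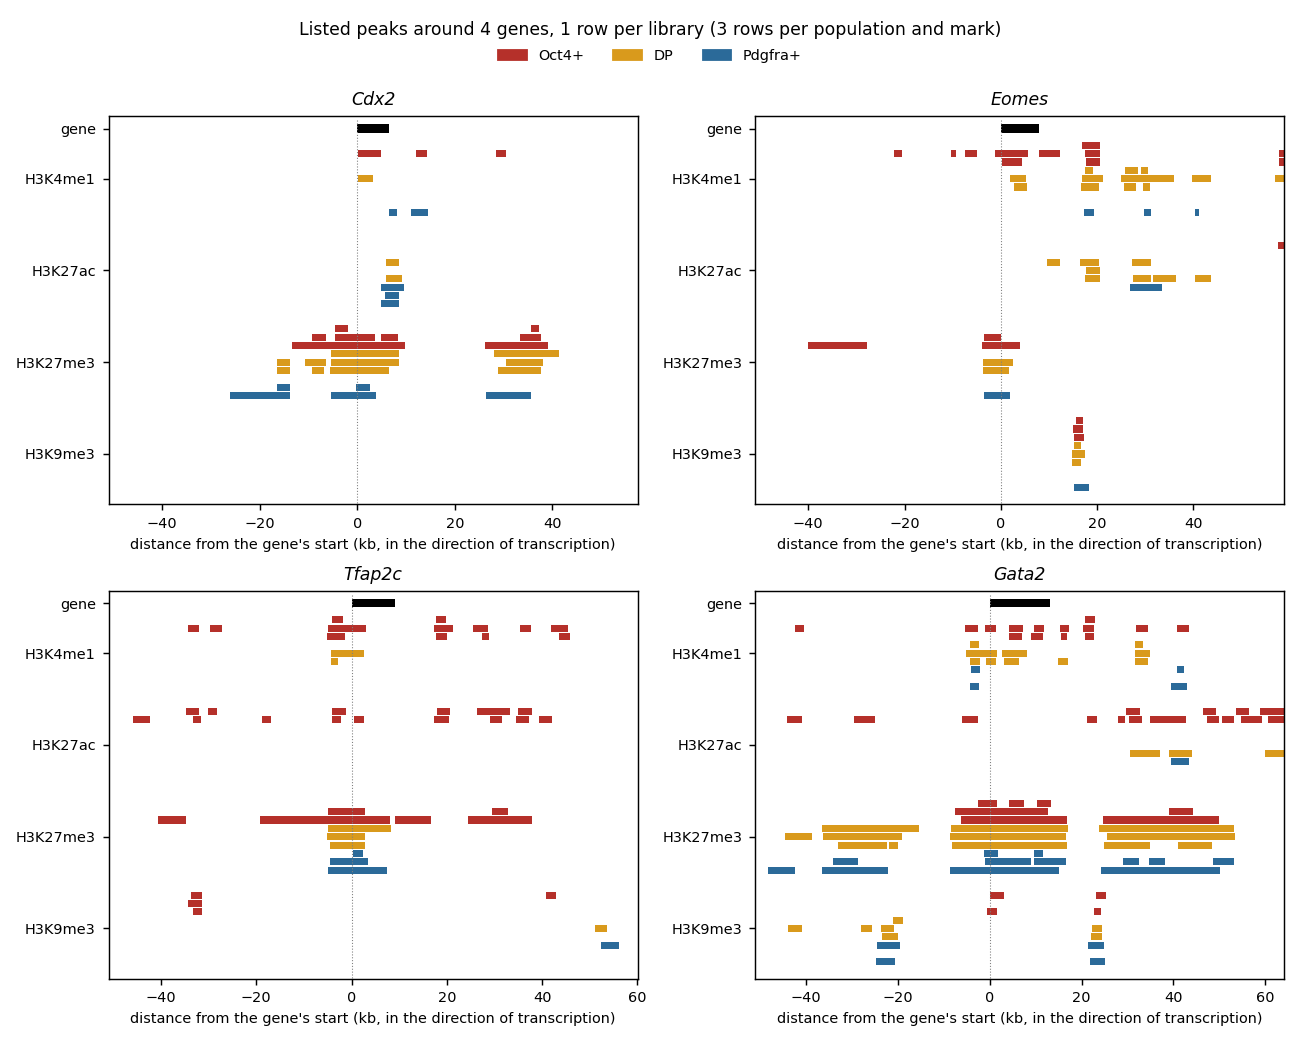
Listed peaks around Cdx2, Eomes, Tfap2c and Gata2, drawn by distance from the gene's start in kb in the direction of transcription, with 1 row per library grouped by mark and coloured by population; the black bar is the gene. H3K27me3 spans the starts of Cdx2, Tfap2c and Gata2, H3K27ac lies at the 3′ end of Cdx2 in DP and Pdgfra+ and 18.5 kb from the Eomes start in DP, and H3K27ac near Tfap2c is found in Oct4+ alone.

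At Cdx2 the H3K27ac was not at the promoter but at the end of the gene. The stretch around its highest signal, chr5:147299427-147299626 on the plus strand, is shown because it was the sole acetylated element of this window. It lies 7.74 kb beyond the start and outside annotated exons, and it held no match to the 3 motifs.
Cdx2 H3K27ac element: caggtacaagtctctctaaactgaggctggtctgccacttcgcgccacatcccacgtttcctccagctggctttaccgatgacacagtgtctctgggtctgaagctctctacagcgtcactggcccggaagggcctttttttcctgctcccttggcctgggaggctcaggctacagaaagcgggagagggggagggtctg
The region chr5:147297649-147302429 had a maximum signal of 0 in 3 of 3 Oct4+ libraries, 33, 0 and 32 in DP and 29, 13 and 31 in Pdgfra+. All Pdgfra+ libraries and 2 of 3 DP libraries lay above Oct4+, and the DP library without a peak, replicate 2, had the shortest H3K27ac list of all, with 3079 peaks. A peak in 3 of 3 Pdgfra+ and 0 of 3 Oct4+ was found in 0.189% of merged H3K27ac regions. H3K27ac covered 0 kb of the Cdx2 window in the Oct4+ libraries, 2.82, 0 and 3.38 kb in DP and 4.78, 2.79 and 3.63 kb in Pdgfra+. The Pdgfra+ minus Oct4+ difference was 2.22 (SE 0.790, limma adjusted p = 0.0777), beside a median of -1.27 over all genes. It passed when scaled to the total covered length (0.0141) and without DP replicate 2 (0.0436). In DP this region overlapped the H3K27me3 domain of the gene, and whether both marks lay in the same cells cannot be told apart from a mixture of cells.

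Tfap2c had most of its active marks in Oct4+. The stretch around the highest H3K4me1 signal near its start, chr2:172545874-172546073 on the plus strand and 3.62 kb before the start, is shown because the region was present in 3 of 3 Oct4+ and 0 of 3 Pdgfra+ libraries. It held 1 GCCNNNGGC match and 1 GATAAG match, in capitals.
Tfap2c H3K4me1 element: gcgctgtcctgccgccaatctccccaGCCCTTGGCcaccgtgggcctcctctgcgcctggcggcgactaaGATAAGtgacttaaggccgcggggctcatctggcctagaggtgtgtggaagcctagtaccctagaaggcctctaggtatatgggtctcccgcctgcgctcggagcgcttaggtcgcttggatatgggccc
The H3K4me1 region around the Tfap2c start, chr2:172544481-172552688, had a signal of 7, 17 and 12 in Oct4+, 0, 14 and 9 in DP and 0 in all 3 Pdgfra+ libraries, and 6.12% of merged H3K4me1 regions were in 3 of 3 Oct4+ and 0 of 3 Pdgfra+. A second region 19.4 kb downstream had 8, 22 and 10 in Oct4+ and 0 in all 6 other libraries. Of all merged H3K4me1 regions, 3.89% were in 3 of 3 Oct4+ and 0 of 3 DP. The DP lists, of 4371 to 11874 peaks, were about as long as those of Oct4+, of 4127 to 16057. Over the window H3K4me1 covered 4.43, 26.0 and 9.90 kb in Oct4+, 0, 6.92 and 1.59 kb in DP and 0 kb in Pdgfra+. Oct4+ and DP overlapped, and every Oct4+ library lay above every Pdgfra+ library. The Pdgfra+ minus Oct4+ difference fell by 3.55 (SE 1.19, limma adjusted p = 0.117), and it passed with an equal number of peaks per list (0.00718), with peaks given to the nearest gene (0.0328) and when scaled to the total (0.0114).

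H3K27ac covered 20.2 and 21.9 kb of the Tfap2c window in Oct4+ replicates 1 and 2 and 0 kb in the other 7 libraries. Those 2 lists were the longest of the 36, and with a peak in 2 libraries the gene was not tested. H3K9me3 at chr2:172515170-172518291, 32.9 kb before the start, had a signal of 7, 9 and 8 in Oct4+ and 0 in all 6 other libraries. The same pattern held for 5.03% of merged H3K9me3 regions against DP and 7.77% against Pdgfra+.

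At Gata2 regions of 3 marks met the rule. An H3K4me1 region 33.2 kb downstream of the start was in 3 of 3 DP libraries and 0 of 3 Pdgfra+, as were 2.13% of merged H3K4me1 regions, and it lay inside a downstream H3K27me3 domain. The bases around its highest signal, chr6:88226517-88226716 on the plus strand, are shown with their 1 GATAAG match in capitals.
Gata2 H3K4me1 element: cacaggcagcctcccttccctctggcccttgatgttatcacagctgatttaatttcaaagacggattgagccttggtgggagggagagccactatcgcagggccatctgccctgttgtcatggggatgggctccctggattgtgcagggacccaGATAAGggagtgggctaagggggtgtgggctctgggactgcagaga
Its signal was 0, 16 and 0 in Oct4+, 11, 25 and 10 in DP and 0 in Pdgfra+, so Oct4+ replicate 2 overlapped with DP. Another H3K4me1 region 21.6 kb downstream had 8, 26 and 16 in Oct4+ and 0 elsewhere, a pattern held by 3.89% of merged H3K4me1 regions against DP and 6.12% against Pdgfra+. Upstream, H3K27me3 at chr6:88157329-88178598, 25.9 kb before the start, had a signal of 36, 23 and 24 in DP, 0 in 3 of 3 Oct4+ libraries and 0, 6 and 20 in Pdgfra+. DP lay above the other populations in all libraries, and 6.43% of merged H3K27me3 regions were in 3 of 3 DP and 0 of 3 Oct4+. H3K9me3 within this stretch was 0 in Oct4+, 10, 10 and 8 in DP and 15, 0 and 9 in Pdgfra+, a pattern of 3 of 3 DP and 0 of 3 Oct4+ that 1.58% of merged H3K9me3 regions shared.

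Over its whole window Gata2 had the longest H3K27me3 coverage of the members in each library but Oct4+ replicate 3, where Tfap2c had 54.2 kb. It was 10.4, 25.4 and 48.2 kb in Oct4+, 75.9, 75.9 and 54.8 kb in DP and 5.09, 33.7 and 69.8 kb in Pdgfra+. DP lay above Oct4+ in every library and overlapped with Pdgfra+ replicate 3. The DP minus Oct4+ difference was 1.49 (SE 1.07, limma adjusted p = 0.379), beside a median of 1.47 over all genes. For Cdx2 and Tfap2a the DP minus Pdgfra+ differences in H3K27me3 were 2.264 and 2.70 (limma adjusted p = 0.295 and 0.265), and without Pdgfra+ replicate 3 they were 3.48 and 3.89 (0.0337 and 0.0256). That replicate had the longest Pdgfra+ list, of 6151 peaks beside 1143 and 2841.

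Elf5 had 1 distal region of this kind. H3K4me1 at chr2:103371593-103373708, 39.0 kb upstream, was 0 in 3 of 3 Oct4+ libraries, 0, 0 and 12 in DP and 8, 11 and 32 in Pdgfra+. Pdgfra+ replicate 3 was the highest, and DP replicate 3 overlapped with the other Pdgfra+ libraries. The pattern of 3 of 3 Pdgfra+ and 0 of 3 Oct4+ was rare for H3K4me1, at 0.759% of merged regions, and it was present here although 2 of the 3 Pdgfra+ lists were the shortest of the mark. The Elf5 difference in covered H3K4me1 was 2.08 in Pdgfra+ minus Oct4+ (SE 0.989, limma adjusted p = 0.282), against a median of -0.97 over all genes, and it passed when scaled to the total covered length (0.0102).

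At Tead4 an H3K27ac region 117.9 kb downstream of the start had 5, 6 and 7 in Oct4+ and 0 elsewhere. This was so for 3.09% of merged H3K27ac regions against DP and 4.18% against Pdgfra+. H3K4me1 inside the gene body, 42.3 kb from the start, was in all Oct4+ libraries, in DP replicates 2 and 3 and in no Pdgfra+ library, and 34.9 kb upstream it was in 2 Oct4+ libraries, all DP libraries and no Pdgfra+ library. The share of merged H3K4me1 regions was 6.12% for the first pattern and 2.13% for the second. H3K27ac covered 35.5, 38.0 and 7.36 kb of the Tead4 window in Oct4+, 22.7, 5.77 and 26.4 kb in DP and 13.7, 4.19 and 8.90 kb in Pdgfra+. The populations overlapped, and the Pdgfra+ minus Oct4+ difference of -1.33 (SE 0.806, limma adjusted p = 0.281) turned to 2.07 with an equal number of peaks per list, to 0.28 when scaled to the total and to 0.11 in the upper 50% of each list. Without Oct4+ replicate 3 it was -2.05 (0.0381).

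Gata3 and Tfap2a held scattered H3K27ac. At Gata3 it covered 9.45, 15.4 and 0 kb in Oct4+, 5.86, 0 and 7.33 kb in DP and 0, 2.06 and 0 kb in Pdgfra+. Its strongest region in DP, 71.3 kb downstream of the start, had a signal of 24, 0 and 20, with 0 in Oct4+ and 12 in Pdgfra+ replicate 2. At Tfap2a H3K27ac covered 6.63, 7.40 and 0 kb in Oct4+, 2.73, 0 and 2.06 kb in DP and 0 kb in Pdgfra+. The region found in both populations lay inside the gene, 15.0 kb from the start, at a signal of 12, 8 and 0 in Oct4+ and 23, 0 and 21 in DP. It held all of the DP coverage but only 1.52 and 1.92 kb of that in Oct4+ replicates 1 and 2, where the rest lay at 1 promoter, upstream and downstream of the gene. In both genes the populations overlapped at 0. The Pdgfra+ minus Oct4+ differences were -1.94 (SE 1.19, limma adjusted p = 0.285) for Gata3 and -2.001 (SE 0.867, limma adjusted p = 0.137) for Tfap2a. Without Oct4+ replicate 3 they were -3.17 (0.0343) and -3.001 (0.0138), and that of Gata2 went from -2.255 (limma adjusted p = 0.284) to -3.77 (0.0361).

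H3K4me1 was also read with the other marks, over regions held by 2 or more of the 3 libraries of a population. Of such H3K4me1 regions in the 8 windows, H3K27me3 overlapped 6 of the 15 found in Oct4+, 5 of the 12 in DP and 2 of the 5 in Pdgfra+. Over the genome the shares were 4.94%, 8.24% and 1.15%. In DP the 5 regions were 3 at Gata2, 1 at Tfap2c and 1 at Eomes. In Oct4+ they were 3 at Gata2, 2 at Tfap2c and 1 at Eomes, and both Tfap2c regions overlapped H3K27ac as well. In Pdgfra+ both were at Gata2. Promoters were not left out of these regions. In DP, chr6:88188823-88195496 and chr6:88196562-88201925 at Gata2 and chr2:172545247-172552162 at Tfap2c overlapped a promoter of their own gene. The DP region at Eomes shared 656 bases with H3K27me3. From the same data, the paper places bivalent DP enhancers, with H3K4me1 and H3K27me3, near Tfap2c, Eomes and Gata2. It took enhancers outside annotated promoters, so the promoter regions counted here are not set beside that result. The members were chosen with earlier results of these data known, so these counts are not independent of that result. The regions of a window are neighbours and lie along the same broad domain, so they are not independent. H3K27ac overlapped 8, 3 and 1 of them, against 63%, 42.2% and 44.5% over the genome. Tead4 held 4 of the Oct4+ regions with H3K27ac and no region with H3K27me3.

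The paralogs of the members gave 1 call each for H3K27ac and H3K9me3, of 10 tested in each mark, where 6.91% and 7.6% of all genes passed. Of 16 paralogs, 10 were tested for H3K27ac, and Cdx1, a caudal-type factor of the posterior embryo, passed, with 4.93, 17.8 and 2.59 kb covered in Oct4+ and 0 kb in the other 6 libraries (limma adjusted p = 0.0218). For H3K9me3, 10 were tested and Tfap2d passed, with 4.53, 4.08 and 1.10 kb in Oct4+ and 0 kb elsewhere (limma adjusted p = 0.0207). For H3K4me1 and H3K27me3, 0 of 10 and 0 of 13 passed the limma F. Cdx1 thus had H3K27ac in Oct4+ where Cdx2 had none in Oct4+.

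Of 20 other trophoblast genes, such as Yap1, Hand1, Gcm1, Krt8 and Krt18, 16 were tested for H3K27ac and 2 passed, beside 6.91% of all genes. Both were higher in Oct4+. Esrrb, an orphan nuclear receptor of trophoblast stem cells and of naive pluripotent cells, was covered over 44.4, 55.7 and 14.7 kb in Oct4+ and 0 kb in the other 6 libraries (limma adjusted p = 0.0206). Ascl2, a helix-loop-helix factor of the spongiotrophoblast, was covered over 9.42, 19.6 and 1.93 kb in Oct4+ and 0 kb elsewhere (limma adjusted p = 0.0219). For H3K4me1, H3K27me3 and H3K9me3, 0 of 16, 0 of 10 and 0 of 13 passed the limma F. The median H3K27ac difference of this list in Pdgfra+ minus Oct4+ was -0.94, and that of the paralogs was -0.67, against -1.27 over all genes.

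The members also differed in how their coverage ran over the 36 libraries. Correlations of log2(covered kb + 1) are descriptions, since all points share the mark and the length of the list. Gata3 with Cdx2 had r = 0.76, Gata2 with Tfap2c 0.73, Gata2 with Gata3 0.70 and Tfap2a with Gata3 0.65 (n = 36 libraries). Tead4 had r = 0.53 with Elf5 and between -0.30 and 0.41 with the other 6. Among genes whose windows do not overlap the member's, the most similar one was Hoxa2 for Cdx2 (r = 0.90), Pak6 for Gata2 (0.91), Exoc3 for Gata3 (0.95), Faah for Tfap2a (0.94), Myb for Tfap2c (0.90), Phyhip for Eomes (0.72), Ankrd52 for Elf5 (0.87) and Ppp6r2 for Tead4 (0.91). Eomes had the lowest of these values.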

How the data were processed

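CUT&Tag libraries of 4 histone marks in 3 sorted nEnd populations were analysed, with 3 replicates each. The authors aligned reads to mm10 with Bowtie2 and called peaks with SEACR in stringent mode against IgG; per the labels, bcl2fastq 2.19.1, SAMtools 1.12, deepTools and bedtools 2.26.0 were also used. Each deposited list gives a peak's position, total signal and maximum signal; the SEACR normalization is not given in the sources used here. Depth is unknown, so list lengths stand in its place.

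Peaks were assigned to GENCODE vM21 genes on GRCm38 (gene body plus 50 kb). Covered length was tested as log2(covered kb + 1) with limma 3.58.1 (R 4.3.3), for genes with a peak in at least 3 of 9 libraries, with Benjamini-Hochberg adjustment over all genes tested and a threshold of 0.05. Scripts were tested on simulated data. All 8 members are named, with the 1 gene most correlated with each, list genes that passed (at most 3 per mark), and regions that meet the 3 of 3 against 0 of 3 rule or carry H3K4me1 with H3K27me3. The members and lists were chosen with earlier results of these data known. Same-numbered replicates deviated together in 0 to 3 of 9 pairs per mark (r over 0.1). This correlation over genes leaves out a shift of a whole list, so it cannot exclude pairing. In H3K27me3 the lists covered 5.51, 15.3 and 53.8 Mb in Oct4+, 52.7, 73.1 and 40.1 Mb in DP and 2.80, 11.4 and 66.8 Mb in Pdgfra+. The main test assumed no pairing, and a replicate block was run as another setting.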

Additional observations from a re-analysis of the deposited data

How the results depend on the processing

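The number of members passing limma's F was 0 for each mark. Calls over all genes, given in brackets, rose in every setting that added a member, from 0, 1061 and 1048 for H3K4me1, H3K27ac and H3K9me3. With an equal number of peaks per list it became 1 for H3K4me1 (Tfap2c) [670] and 1 for H3K9me3 (Tfap2a) [2490]. Scaled to the total covered length it became 2 for H3K4me1 (Elf5, Tfap2c) [1123], 1 for H3K27ac (Cdx2) [2442] and 1 for H3K9me3 (Tfap2a) [2344], and in the upper 50% of peaks it became 1 for H3K9me3 (Tead4) [1289]. Leaving out 1 library gave 0 to 1 for H3K4me1 (Eomes without Pdgfra+ replicate 3) [1527], H3K27ac (Tfap2a without Oct4+ replicate 3) [2710] and H3K9me3 (Tfap2a without Pdgfra+ replicate 1) [1650], and 0 for H3K27me3. With the replicate block it was 0 for each mark, while calls over all genes were 9, 718, 1036 and 0 for H3K4me1, H3K27ac, H3K27me3 and H3K9me3, against 0, 1061, 0 and 1048 without it.

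Members with a peak per library fell most with equal list lengths. They were 3 (Oct4+) and 1.33 (DP) for H3K4me1, 0.667, 2 and 1.67 (Oct4+, DP, Pdgfra+) for H3K27ac, 5 (DP) for H3K27me3 and 1 and 0.667 (Oct4+, DP) for H3K9me3. In the upper 50% of peaks the member counts were 3 (DP) for H3K4me1, 2.67 and 1 (DP, Pdgfra+) for H3K27ac and 2.33 and 2.67 (Oct4+, DP) for H3K9me3. The shares of all coding genes were then 16.6% to 37.7% for H3K4me1 and 18.0% to 48.4% and 25.7% to 34.1% for H3K27ac. For H3K9me3 they were 28.2% to 43.6% and 27.4% to 44.5%. H3K9me3 counts were 2.67 and 3 with a flank of 20 kb and 3 and 3.33 with the nearest gene (Oct4+, DP).

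Of 415 alternative values of 25 single differences, 381 kept direction and side of the threshold, and 9 turned in sign. Scaled to the total, these were Tead4 H3K4me1 (-0.53), Gata3 (-0.055), Tfap2c (-1.26) and Gata2 (-0.15) H3K27me3 and Tead4 H3K27ac (0.28), which also turned with equal numbers (2.07) and in the upper 50% (0.11). Tfap2c H3K27me3 ran from -0.11 (without Pdgfra+ replicate 1) to 0.93 (without Pdgfra+ replicate 3) when 1 library was left out, and Gata2 H3K9me3 was -0.096 with a flank of 20 kb. Causes were not tested. The unknown depth limits every absence of a peak to the list it was read from.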
